A study of Mus musculus with 24 samples.

Results

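The 10 genes described here encode AP-1 subunits and other immediate early factors: Fos, Fosb, Jun, Junb, Jund, Atf3, Egr1, Klf4, Klf6 and Ier2. They were chosen by symbol from 21887 protein-coding genes on the main mouse chromosomes, with earlier results of these data known. Their counts are therefore not those of an unselected set. Peaks were counted inside each gene and 5 kb on either side of it. The peaks come from CUT&RUN, in which an antibody brings a nuclease to a chromatin-bound protein and the released DNA fragments are sequenced. The material was whole retina of wild-type mice taken 2 days (P2) or 17 days (P17) after birth, with 600000 nuclei in each reaction, so any peak can come from any cell type of the retina. At each age there were 2 libraries each for SOX9, the histone mark H3K4me3, the histone mark H3K27ac and a nonspecific IgG, and 4 libraries for SOX8, from 2 antibodies (ab3 and ab5 in the labels). Strain, sex and the number of animals are not given in the sources used here.

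The data used are 8 peak lists, 1 for each target and age, and no list names a replicate. Every number below therefore describes 1 list, has no replicate error and no test, and a difference between P2 and P17 cannot be told apart from a difference in depth or threshold between the lists. The score field was 0 in all 349901 peaks, so only number, width and position were available. The IgG libraries were not analysed here. SOX lists held 2400 to 5476 peaks, H3K4me3 lists 9134 and 9629. H3K27ac had 287845 peaks in the P2 list, against 29909 in that of P17. In whole retina, fewer cells of a type and less signal per cell cannot be told apart. As a check of the tissue, H3K4me3 peaks lay at 6 of 8 rod photoreceptor markers at P2 and 8 of 8 at P17, at 7 of 8 and 2 of 8 Müller glia markers, and at 2 of 6 and 5 of 6 bipolar cell markers. At both ages they lay at 1 of 7 microglia markers (Aif1), 1 of 5 endothelial markers (Kdr) and 1 of 5 pigment epithelium markers (Best1). The other markers of these 3 types had no H3K4me3 peak at either age, although the P2 H3K27ac list, which touches most genes, had peaks at 7 of 7 microglia, 5 of 5 endothelial and 4 of 5 pigment epithelium markers. At P17 H3K27ac lay at 1 of 7, 2 of 5 and 1 of 5. Of all genes, 49.3% had an H3K4me3 peak at P2 and 50.9% at P17, and 81.8% and 57.0% had an H3K27ac peak. A peak at a marker gene, or its absence, does not show how many cells of that type were present.

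AP-1 is a family of dimers that Fos and Jun proteins form through a leucine zipper. Jun proteins pair with each other or with Fos proteins, while Fos proteins need a Jun partner. Immediate early genes are transcribed soon after a stimulus, without new protein being made first, mostly through serum response factor and CREB at their promoters. In the retina, AP-1 genes and Atf3 are known to rise in Müller glia and neurons after injury, and Egr1 is known to respond to light.

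SOX8 and SOX9 peaks lay at most of the 10 genes at both ages. P2 SOX8 peaks lay at 7 of the 10, against 15.1% of all protein-coding genes counted in the same way, and P2 SOX9 peaks at 9, against 27.7%. At P17 the counts were 7 for SOX8, against 13.0% of genes, and 8 for SOX9, against 15.7%. Each of the 10 had a peak in at least 1 of the 4 SOX lists, whereas 66.1% of genes had none. Fos, Fosb, Jun, Junb, Jund and Ier2, 6 of the 10, had a peak in all 4 SOX lists, against 6.45% of genes. The same 6 had a peak in all 8 lists, against 6.32% of genes.

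The histone marks lay at nearly all of the 10 as well. H3K4me3, a mark of active promoters, had a peak at 9 genes at P2 (background 49.3%) and at 10 at P17 (background 50.9%). H3K27ac, a mark of active promoters and enhancers, had a peak at 10 genes at P2, where the background was 81.8%, and at 9 at P17, where it was 57.0%. The P2 H3K27ac count lies close to its background and says little about these genes. Genes with H3K4me3 at both ages, 10043 in all, had a SOX peak more often than all genes: 31.2% had a P2 SOX8 peak, 54.9% a P2 SOX9 peak, 24.5% a P17 SOX8 peak and 28.7% a P17 SOX9 peak. Of the 10 genes, 9 belong to that set, and 7, 9, 6 and 8 of the 9 had those peaks, in the same order. H3K27ac lay at 99.9% of that set at P2 and at 94.8% at P17, against 9 and 8 of the 9. Both H3K27ac counts thus lie close to the shares of that set and say little about these genes. No SOX peak lay at 37.7% of that set, against 66.1% of all genes and 0 of the 9. A peak in all 4 SOX lists lay at 13.8% of it, against 6.45% of all genes and 6 of the 9. The share with a peak in all 8 lists was also 13.8%, again against 6 of the 9. The 10 genes are short, from 1522 bp (Ier2) to 13038 bp (Atf3), against a median of 17169 bp for all genes. Among the 7177 genes of that length range the shares with a SOX peak were 14.5%, 25.6%, 14.9% and 17.7%, again in the same order.

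**Figure D1:**
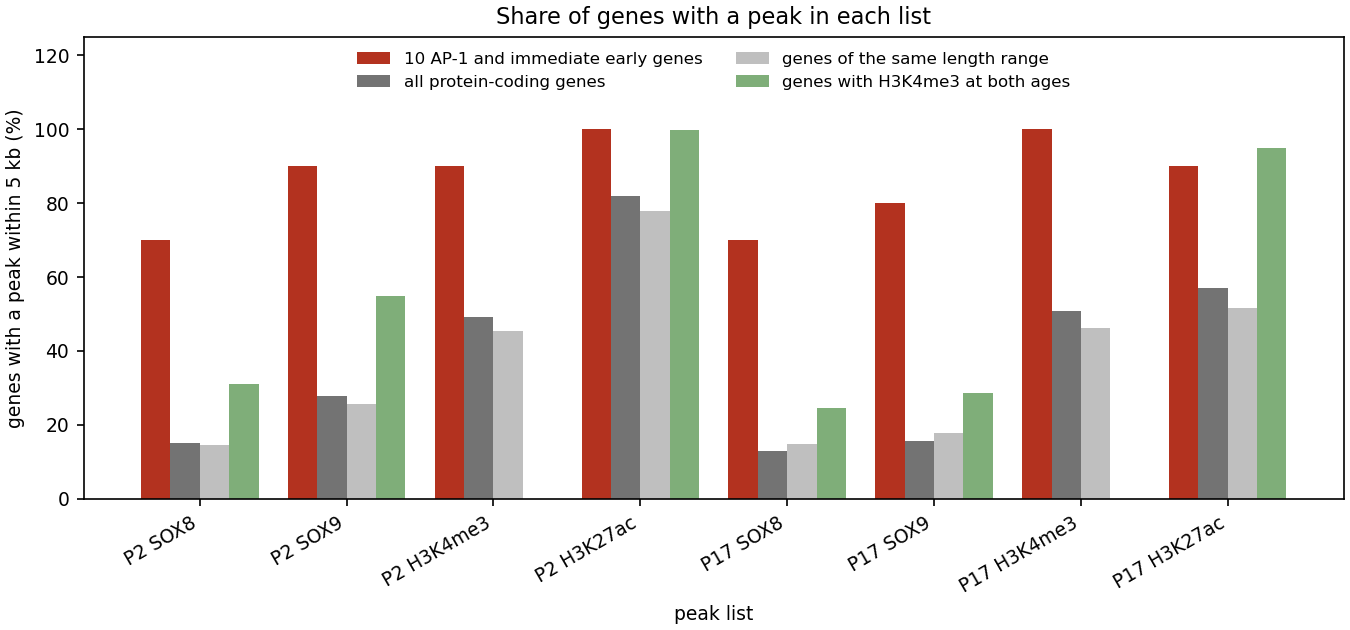
Share of genes with a peak inside the gene or 5 kb on either side (vertical axis, percent) in each of the 8 peak lists (horizontal axis), for the 10 genes (red), all protein-coding genes (dark grey), genes of the same length range (light grey) and genes with H3K4me3 at both ages (green, left out for H3K4me3 itself). In each SOX list 7 to 9 of the 10 genes have a peak, and 24.5% to 54.9% of genes with H3K4me3 at both ages.

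Both factors lay together at 7 of the 10 genes at P2 (background 14.5%) and at 6 at P17 (background 9.29%). Among genes with H3K4me3 at both ages the shares with both factors were higher, 30.1% at P2 and 18.3% at P17. At P2 the SOX8 and SOX9 peaks overlapped by at least 1 bp at 6 of these 7 genes, with Junb as the exception, and at P17 at all 6. Overlap was the rule: among all genes with both factors the peaks overlapped at 99.3% at P2 and 90.0% at P17. The remaining genes had SOX9 without SOX8, namely Klf4 at both ages, Klf6 at P2 and Egr1 at P17, or SOX8 without SOX9, namely Atf3 at P17. The 4 SOX lists held 32 peaks at the 10 genes, of which 31 overlapped H3K4me3 of the same age and 31 overlapped H3K27ac of the same age. The exception for H3K4me3 was a P2 SOX9 peak of 1867 bp beside Ier2, and that for H3K27ac was the P17 SOX9 peak at Klf4. Over the whole lists, 90.1% of P2 SOX8, 79.8% of P2 SOX9, 69.7% of P17 SOX8 and 66.5% of P17 SOX9 peaks overlapped H3K4me3. Whole lists can also hold peaks far from any gene, unlike the 32, and gene-proximal peaks alone were not counted. The shares that overlapped H3K27ac were 99.7%, 99.4%, 84.0% and 84.3% in the same order, so the H3K27ac overlap at the 10 genes lies close to that of the lists.

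**Figure D2:**
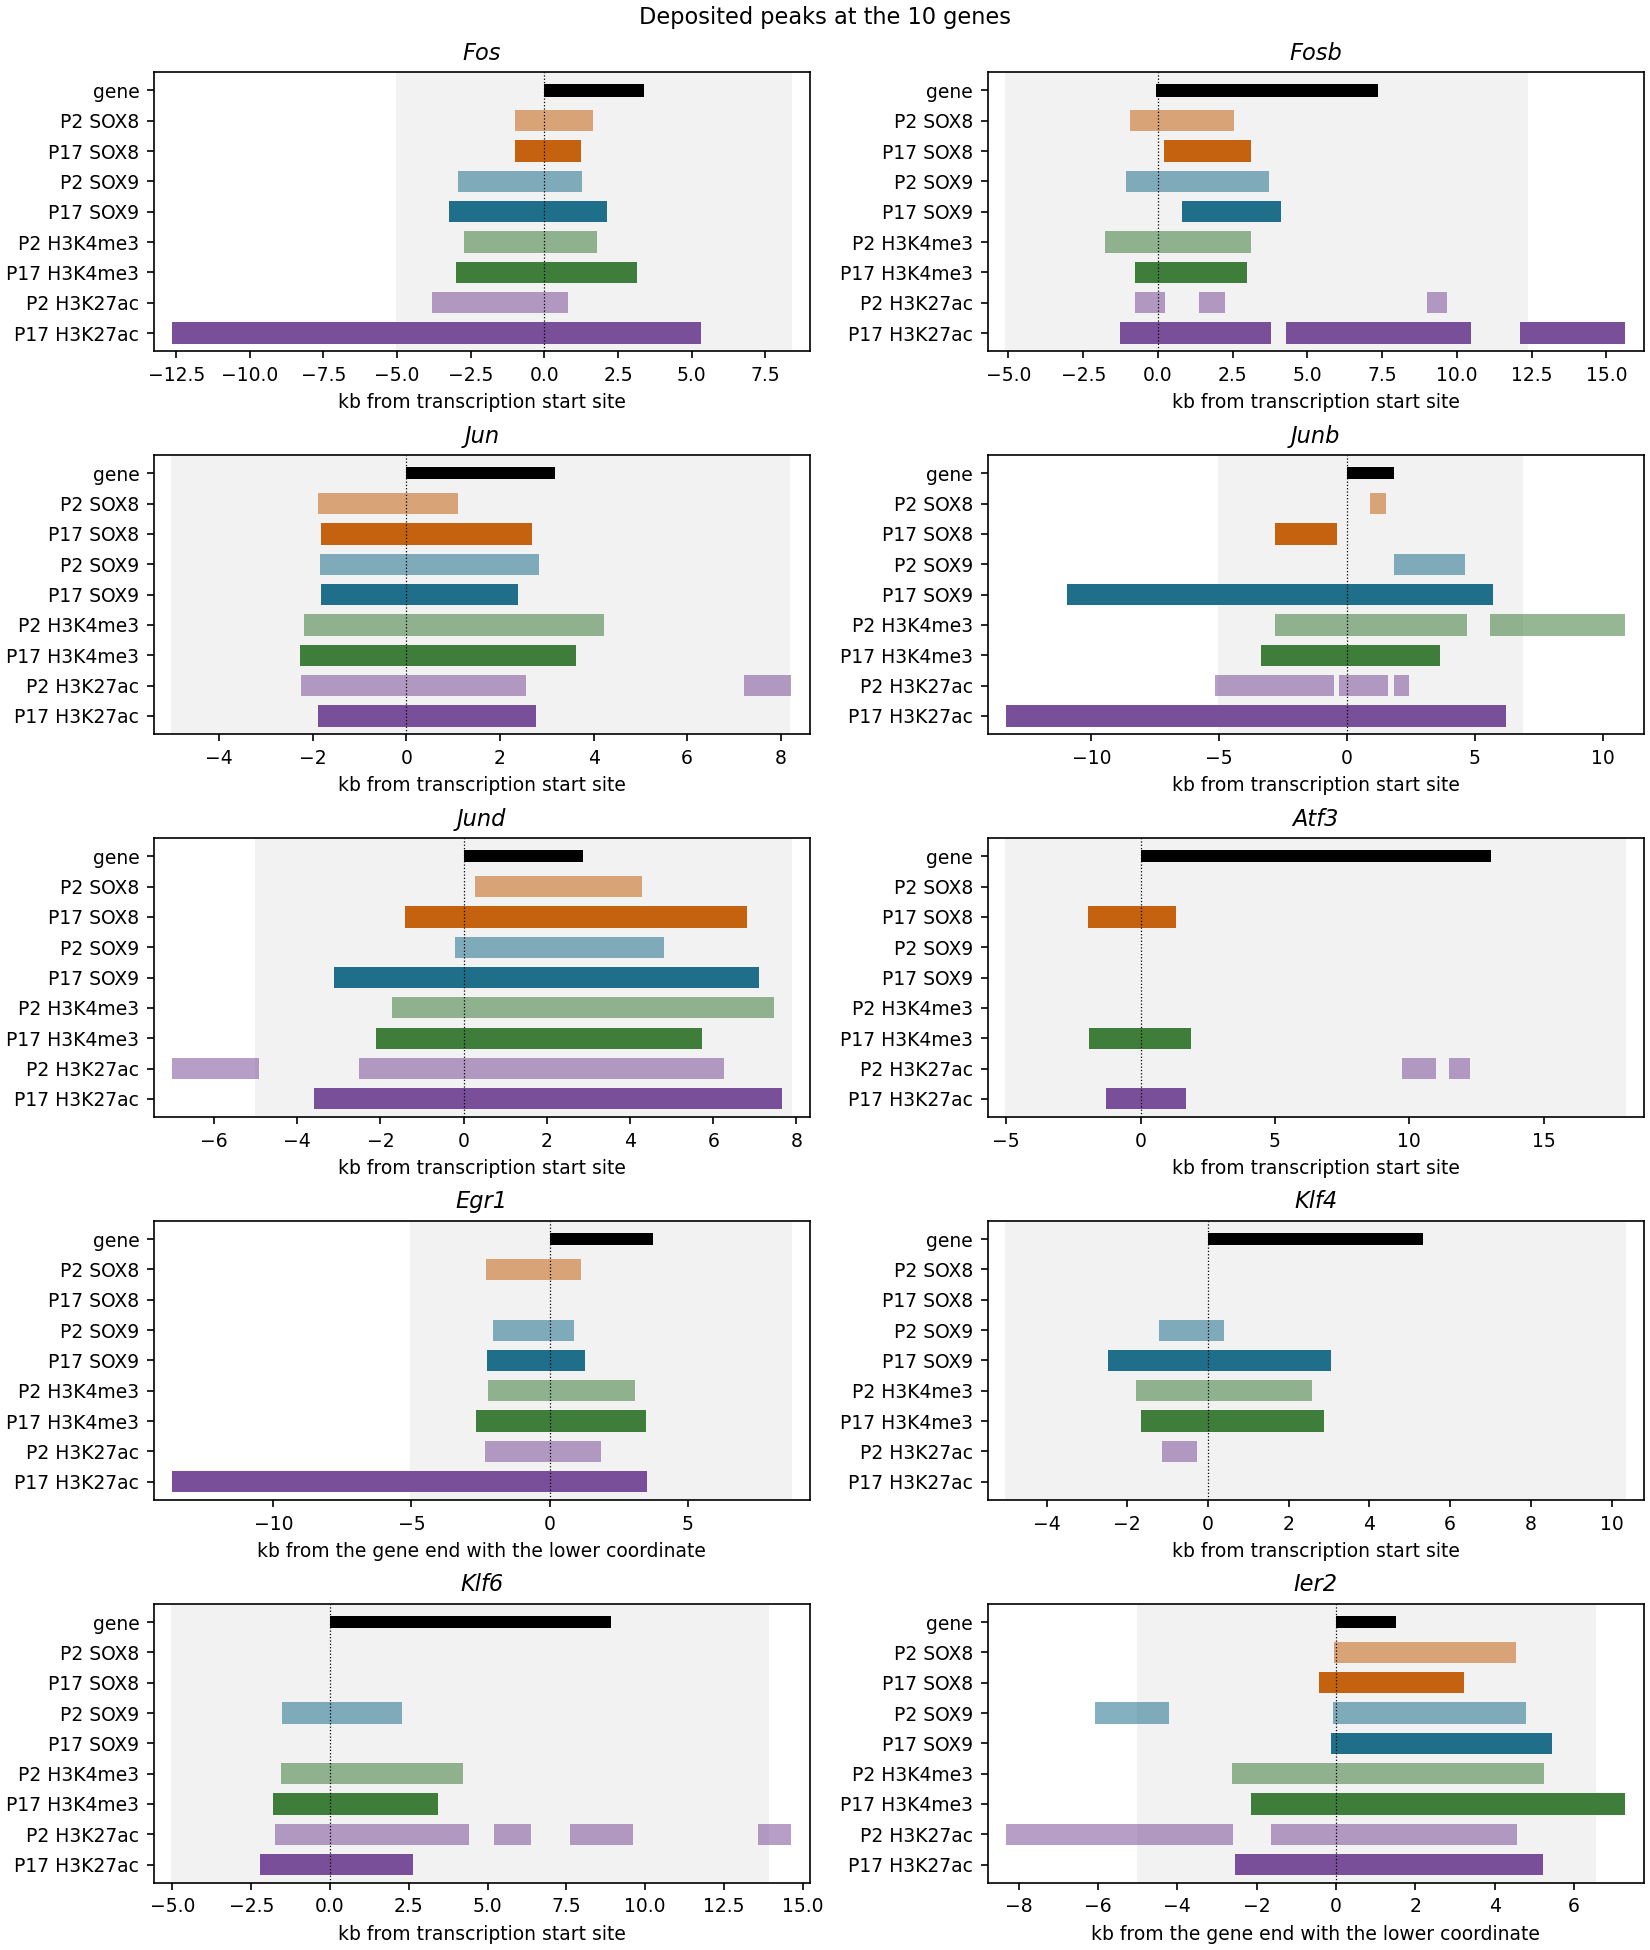
Peaks of the 8 lists (rows, pale for P2 and dark for P17) at each of the 10 genes (black bar), in kb from the transcription start site with transcription running to the right. For Egr1 and Ier2 the axis starts at the gene end with the lower coordinate. The grey area is the gene with 5 kb on either side. The SOX peaks of Fos and Jun lie over the start site in all 4 lists, those of Fosb end beside it at P17, and the 4 of Junb share no base.

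Promoter sequences show which bases these peaks cover. The RefSeq promoter table (GRCm38.p6), which gives 250 bases before and 50 bases after a start site, holds 8 of the 10 genes. Egr1 and Ier2 are not among them. The 250 bases before the start site are printed for 5 genes that differ in their SOX peaks: Fos at chr12:85473640-85473889 (plus strand) and Jun at chr4:95052223-95052472 (minus strand), covered in all 4 SOX lists; Junb at chr8:84978749-84978998 (minus strand), covered by P17 SOX9 alone; Atf3 at chr1:191183334-191183583 (minus strand), covered by P17 SOX8 alone; and Klf4 at chr4:55532476-55532725 (minus strand), covered by SOX9 at both ages. Each reads 5′ to 3′ toward the gene, and capitals mark TGACG on either strand, the core of the cyclic AMP response element that CREB and ATF factors bind.
Fos: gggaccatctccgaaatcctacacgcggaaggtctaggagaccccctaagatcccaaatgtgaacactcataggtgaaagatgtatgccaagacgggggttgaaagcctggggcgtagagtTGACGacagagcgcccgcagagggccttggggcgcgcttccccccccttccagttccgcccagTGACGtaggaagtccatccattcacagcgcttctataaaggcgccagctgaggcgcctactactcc
Jun: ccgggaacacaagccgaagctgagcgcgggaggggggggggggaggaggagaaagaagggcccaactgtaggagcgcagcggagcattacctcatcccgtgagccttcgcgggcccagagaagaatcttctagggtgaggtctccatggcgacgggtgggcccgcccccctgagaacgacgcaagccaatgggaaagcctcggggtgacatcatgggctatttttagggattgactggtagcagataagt
Junb: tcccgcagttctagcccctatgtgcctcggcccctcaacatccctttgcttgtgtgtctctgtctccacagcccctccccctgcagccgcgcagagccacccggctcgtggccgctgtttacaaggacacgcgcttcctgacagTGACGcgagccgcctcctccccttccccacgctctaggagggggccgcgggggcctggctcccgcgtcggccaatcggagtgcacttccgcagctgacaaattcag
Atf3: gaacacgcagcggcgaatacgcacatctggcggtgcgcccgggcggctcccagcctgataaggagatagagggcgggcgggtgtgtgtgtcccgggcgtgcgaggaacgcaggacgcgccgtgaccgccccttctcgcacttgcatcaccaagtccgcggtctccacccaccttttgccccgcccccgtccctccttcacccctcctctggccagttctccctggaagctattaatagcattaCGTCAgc
Klf4: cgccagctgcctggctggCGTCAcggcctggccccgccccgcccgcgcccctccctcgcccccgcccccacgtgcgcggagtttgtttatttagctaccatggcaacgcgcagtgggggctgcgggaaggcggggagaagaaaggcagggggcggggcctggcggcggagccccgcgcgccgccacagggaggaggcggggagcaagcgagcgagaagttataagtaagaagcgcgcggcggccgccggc

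TGACG was found on either strand in 5 of the 8 promoters of 300 bases, those of Fos, Fosb, Junb, Atf3 and Klf4, against 23.6% of 21263 promoters of protein-coding genes. In Fos it occurred at 2 places, with its first base at -129 and at -66 from the start site. The full element TGACGTCA was in none of the 8 and in 2.23% of all promoters. The AP-1 site TGANTCA was in none of the 8 and in 6.99% of all. The serum response element (CArG box) was in none of the 8 and in 1.52% of all. The SOX core ACAAT was in 1 of the 8, Jund, 6 bases after the start site, against 27.7% of all promoters. Paired SOX cores facing each other or away, 3 to 5 bases apart, were in none of the 8 and in 0.122% of all. TGACG also lies within TGACGTCA. A match is a run of letters, and its absence says only that these letters are not in this window. GC content of the 250 bases was 58.4% in Fos, 61.2% in Jun, 66.4% in Junb, 65.2% in Atf3 and 74.0% in Klf4, against a median of 55.6%. Among the promoters not printed, it was 47.6% in Jund, below that median, 64.8% in Klf6 and 69.5% in 177 of those bases in Fosb.

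The 300-base promoter lies inside the gene window, so a SOX peak can touch it at no more genes than the window. Of the 8 promoters, 3 were touched by a P2 SOX8 peak (background 12.3% of promoters), 6 by P2 SOX9 (background 22.7%), 4 by P17 SOX8 (background 8.61%) and 5 by P17 SOX9 (background 10.7%). H3K4me3 covered 7 of the 8 whole at P2 and 8 of the 8 at P17, and it touched 44.0% and 45.3% of all promoters. The P17 SOX8 and SOX9 peaks at Fosb lay beside a promoter that H3K4me3 covered. So did the P2 SOX8, P2 SOX9 and P17 SOX8 peaks at Junb, and the P2 SOX8 peak at Jund.

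Fos, the founding Fos protein, lies at chr12:85473890-85477274 on the plus strand and had 1 peak in each of the 8 lists. The SOX8 peak was 2642 bp wide at P2 (chr12:85472898-85475539) and 2232 bp at P17 (chr12:85472899-85475130), and both began within 1 kb upstream of the start site. The SOX9 peak was 4211 bp at P2 (chr12:85470967-85475177) and 5363 bp at P17 (chr12:85470644-85476006). All 4 SOX peaks shared a segment of 2232 bp that holds the start site, from 991 bp before it to 1240 bp after it. The H3K4me3 peak was 4517 bp at P2 and 6156 bp at P17, and the H3K27ac peak 4647 and 17940 bp. At P17, H3K27ac reached 12628 bp upstream of Fos.

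Fosb, a Fos protein that persists longer after a stimulus in a spliced form, lies at chr7:19302696-19310118 on the minus strand. Its SOX8 peak was 3462 bp at P2 (chr7:19307509-19310970) and 2923 bp at P17 (chr7:19306930-19309852), and its SOX9 peak was 4785 bp at P2 (chr7:19306336-19311120) and 3311 bp at P17 (chr7:19305920-19309230). At P2 both peaks covered the promoter, reaching 925 bp (SOX8) and 1075 bp (SOX9) upstream of the start site. At P17 both ended inside the gene, 193 bp (SOX8) and 815 bp (SOX9) downstream of the start site. The P17 H3K4me3 peak still covered the promoter, reaching 771 bp upstream.

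Jun, the partner of Fos in the classical AP-1 dimer, lies at chr4:95049036-95052222 on the minus strand. Its SOX8 peaks were 2993 bp at P2 (chr4:95051123-95054115) and 4513 bp at P17 (chr4:95049545-95054057). Its SOX9 peaks were 4673 bp at P2 (chr4:95049393-95054065) and 4212 bp at P17 (chr4:95049831-95054042). The upstream edges of all 4 lay 1820 to 1893 bp before the start site, so that the lists differed mainly on the side of the gene body. Jun had no further SOX or H3K4me3 peak within 50 kb of the gene.

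Junb, a Jun protein often opposed to Jun in cell growth, lies at chr8:84976909-84978748 on the minus strand, with Prdx2 reaching into its window. At P2 the SOX8 peak was 637 bp wide (chr8:84977215-84977851) and lay inside the gene, and 99.8% of the P2 SOX8 list was at least that wide. The P2 SOX9 peak was 2766 bp wide (chr8:84974146-84976911), lay downstream of the gene and reached 3 bp into it. The P17 SOX8 peak was 2438 bp wide (chr8:84979141-84981578) and ended 393 bp before the start site. The P17 SOX9 peak spanned 16663 bp (chr8:84973034-84989696), from Prdx2 over Junb to Hook2, and ranked 25 by width among 2855 peaks. The 4 SOX peaks shared no base, and only the P17 SOX9 peak covered the promoter, where H3K4me3 lay at both ages (7512 and 7035 bp).

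Jund, a Jun protein expressed more steadily than Jun, lies at chr8:70697739-70700616 on the plus strand, with Iqcn reaching into its window. SOX8 peaks were 4027 bp at P2 (chr8:70698004-70702030) and 8215 bp at P17 (chr8:70696334-70704548). SOX9 peaks were 5013 bp at P2 (chr8:70697534-70702546) and 10202 bp at P17 (chr8:70694636-70704837). The P2 SOX8 peak began 265 bp after the start site, while the P17 peaks covered the whole gene and its promoter. By width the P17 SOX8 peak ranked 29 among 2400. H3K4me3 peaks were 9182 bp at P2 and 7841 bp at P17. A peak over Jund and Iqcn cannot be assigned to either gene.

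Atf3, a stress-induced factor that can pair with Jun proteins, lies at chr1:191170296-191183333 on the minus strand and was the only 1 of the 10 without a SOX or H3K4me3 peak at P2. Its P2 H3K27ac peaks, of 1264 and 766 bp, lay 9740 and 11493 bp downstream of the start site. At P17 the promoter carried a SOX8 peak of 3287 bp (chr1:191182008-191185294), an H3K4me3 peak of 3817 bp (chr1:191181450-191185266) and an H3K27ac peak of 3008 bp (chr1:191181629-191184636). The nearest SOX9 peaks lay 143336 bp from the gene at P2 and 211849 bp at P17. This pattern over the 8 lists was held by 22 genes, or 0.101% of all.

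Egr1, a zinc finger factor induced by serum, growth factors and neuronal activity, lies at chr18:34861207-34864956. It had a SOX8 peak of 3444 bp at P2 (chr18:34858915-34862358) and none at P17, where the nearest lay 88853 bp away, at Hspa9. SOX9 peaks were 2961 bp at P2 (chr18:34859147-34862107) and 3564 bp at P17 (chr18:34858932-34862495), and all 3 SOX peaks shared the 2961 bp of the P2 SOX9 peak. The H3K4me3 peak was 5321 bp at P2 and 6154 bp at P17, and the H3K27ac peak 4219 and 17186 bp.

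Klf4 and Klf6 are Krüppel-like zinc finger factors, Klf4 known as a reprogramming factor and Klf6 as a gene of injury responses. Klf4, at chr4:55527137-55532475 on the minus strand, had SOX9 peaks of 1608 bp at P2 (chr4:55532087-55533694) and 5535 bp at P17 (chr4:55529426-55534960), both over the promoter, and no SOX8 peak at either age. It was the only 1 of the 10 without a P17 H3K27ac peak, although its H3K4me3 peaks of 4350 and 4536 bp overlapped by 4237 bp. Its pattern over the 8 lists was held by 7 genes, or 0.0320% of all. Klf6, at chr13:5861489-5870393 on the plus strand, had a P2 SOX9 peak of 3817 bp over the promoter (chr13:5859951-5863767) and no other SOX peak. The nearest P17 SOX9 peak lay 7052696 bp away. Its H3K4me3 peaks were 5761 bp at P2 and 5238 bp at P17. The pattern of Klf6 over the 8 lists was held by 1690 genes, or 7.72% of all.

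Ier2, a small nuclear protein induced with the AP-1 genes, lies at chr8:84661331-84662852. SOX8 peaks were 4591 bp at P2 (chr8:84661271-84665861) and 3640 bp at P17 (chr8:84660914-84664553), and each covered the whole gene. The P2 SOX8 peak ranked 53 by width among 2653. SOX9 peaks of 4845 bp at P2 (chr8:84661267-84666111) and 5594 bp at P17 (chr8:84661195-84666788) covered it too. A further P2 SOX9 peak of 1867 bp (chr8:84655267-84657133) reached into the flank of lower coordinates and overlapped P2 H3K27ac but not P2 H3K4me3. Ier2 had the widest P17 H3K4me3 peak of the 10, at 9432 bp.

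Between the ages, SOX9 peaks lay at 8 of the 10 genes in both lists, at 1 (Klf6) in the P2 list alone and at none in the P17 list alone, while 11.4% of all genes had SOX9 at both ages, 16.4% at P2 only and 4.35% at P17 only. The P2 and P17 SOX9 peaks overlapped at all 8, by 1608 to 5013 bp, as they did at 89.6% of the 2494 genes with SOX9 at both ages. SOX8 peaks lay at 6 genes in both lists, at Egr1 at P2 only, at Atf3 at P17 only and at neither age at Klf4 and Klf6. Of all genes, 8.08% had SOX8 at both ages, 1533 genes had it at P2 only, 4.94% had it at P17 only and 80.0% at neither. The SOX8 peaks of the 2 ages overlapped at 5 of the 6, with Junb as the exception, and at 93.6% of the 1769 genes with SOX8 at both ages. H3K4me3 was at both ages at 9 genes, against 45.9% of all genes, and at P17 only at Atf3, as at 1094 of 21887 genes.

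Width at P17 relative to P2 varied among the genes. For each gene with a peak at both ages, the widest peak at P17 was divided by the widest at P2. For SOX9 the ratio was 6.02 at Junb, 3.44 at Klf4, 2.04 at Jund, 1.27 at Fos, 1.20 at Egr1, 1.15 at Ier2, 0.901 at Jun and 0.692 at Fosb. The median over 2494 genes was 1.52 (quartiles 1.09 and 2.25), so 3 of the 8 lay above it. The ratio at Fosb was low among all genes, of which 96.2% had at least that ratio, and the ratio at Junb was high, reached by 1.32%. For SOX8 the ratio ran from 0.793 at Ier2 to 3.83 at Junb, against a median of 1.12 over 1769 genes, and 3 of 6 lay above that median. The P2 and P17 SOX8 peaks at Junb lay at different places and shared no base.

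H3K4me3 ratios lay between 0.762 (Fosb) and 1.36 (Fos), against a median of 1.05 over 10043 genes, with 3 of 9 above it. H3K27ac ratios were 6.20 at Fosb, 4.19 at Junb, 4.07 at Egr1, 3.86 at Fos and 2.38 at Atf3, all above the upper quartile of 2.35 over 12412 genes. At Atf3 the P2 and P17 H3K27ac peaks lay at different places and shared no base. The H3K27ac ratios were 1.28 at Jund, 1.26 at Ier2, 0.963 at Jun and 0.785 at Klf6, all below the median of 1.30. At Junb the P17 peaks of SOX8, SOX9 and H3K27ac were thus the wider and that of H3K4me3 the narrower. The SOX8 ratio at Junb compares 2 separate peaks. Its P17 SOX9 peak ran over Prdx2, Junb and Hook2. That peak also overlapped a separate P2 SOX9 peak at Hook2 (3801 bp, chr8:84989110-84992910), so its ratio is not the widening of 1 peak at Junb alone. For H3K27ac, 3 P2 peaks at Junb (595, 1913 and 4662 bp) lay inside the P17 peak of 19544 bp (chr8:84972537-84992080). The ratio of 4.19 sets that peak against the widest of the 3. Between the whole H3K27ac lists, the P17 to P2 ratio of median widths was 2.80. At Fosb H3K27ac was wider at P17 and the other 3 targets narrower, but its widest P17 H3K27ac peak (6203 bp, chr7:19299569-19305771) lay over the far end of the gene and did not overlap the widest P2 peak (1001 bp, chr7:19309812-19310812).

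**Figure D3:**
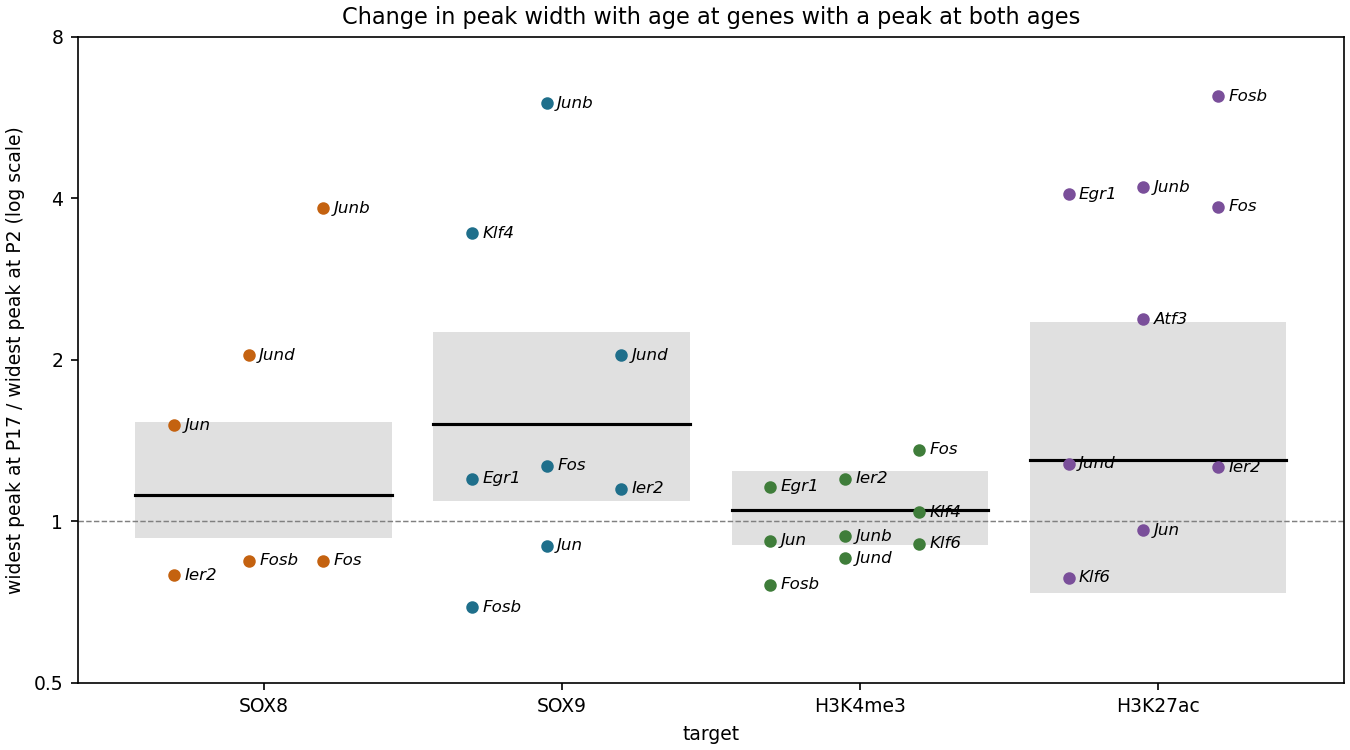
Width of the widest P17 peak divided by that of the widest P2 peak (vertical axis, log scale) for each target (horizontal axis), at those of the 10 genes with a peak at both ages (points). Grey boxes give the quartiles and black lines the median over all protein-coding genes with a peak at both ages. Junb lies above the box for SOX8, SOX9 and H3K27ac and near the lower edge for H3K4me3. Its P2 and P17 SOX8 peaks share no base, and its P17 H3K27ac peak spans 3 separate P2 H3K27ac peaks.

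H3K4me3 peaks at most of the 10 genes were wide. Where a gene had an H3K4me3 peak, the widest was 4350 to 9182 bp at P2, all 9 above the list median of 3542 bp, and 3736 to 9432 bp at P17, all 10 above the list median of 3703 bp. Of all genes with a peak, 55.1% at P2 and 55.6% at P17 had one above the list median. The widest peak of those genes had a median of 3682 bp at P2 and 3885 bp at P17. At P17 Fosb (3736 bp) and Atf3 (3817 bp) lay below that median. For P2 SOX9 8 of 9 were above the list median and for P2 SOX8 6 of 7, against 49.9% and 50.3% of genes. At P17 these counts were 5 of 8 for SOX9 and 5 of 7 for SOX8, against 53.3% and 55.0%.

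Coverage of the gene window, with genes without a peak counted as 0, gives the same 10 genes on 1 scale. The median over the 10 was 19.8% of the window for P2 SOX8, 25.4% for P2 SOX9, 16.7% for P17 SOX8 and 34.0% for P17 SOX9, and the median over all genes was 0.00% in each. The 90th percentile of all genes was 3.92%, 10.5%, 3.73% and 10.3% in the same order. The 10 genes are short (median 3568 bp, against 17169 bp for all genes), so a peak of given width covers more of their windows. Coverage was not compared with genes of similar length. For H3K4me3 the medians of the 10 were 36.2% at P2 and 44.7% at P17, and for H3K27ac 39.3% and 64.0%. All genes had medians of 0.00% and 0.851% for H3K4me3, and of 20.9% and 4.85% for H3K27ac. The P2 H3K27ac value of the 10 is thus set against a much larger background, and it lies below the upper quartile of all genes, 42.6%. Junb had the highest coverage in the P17 SOX9 list (90.5%) and Jund in the P17 SOX8 list (63.8%), while Atf3 was the lowest of the genes with P17 SOX8 (14.3%).

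**Figure D4:**
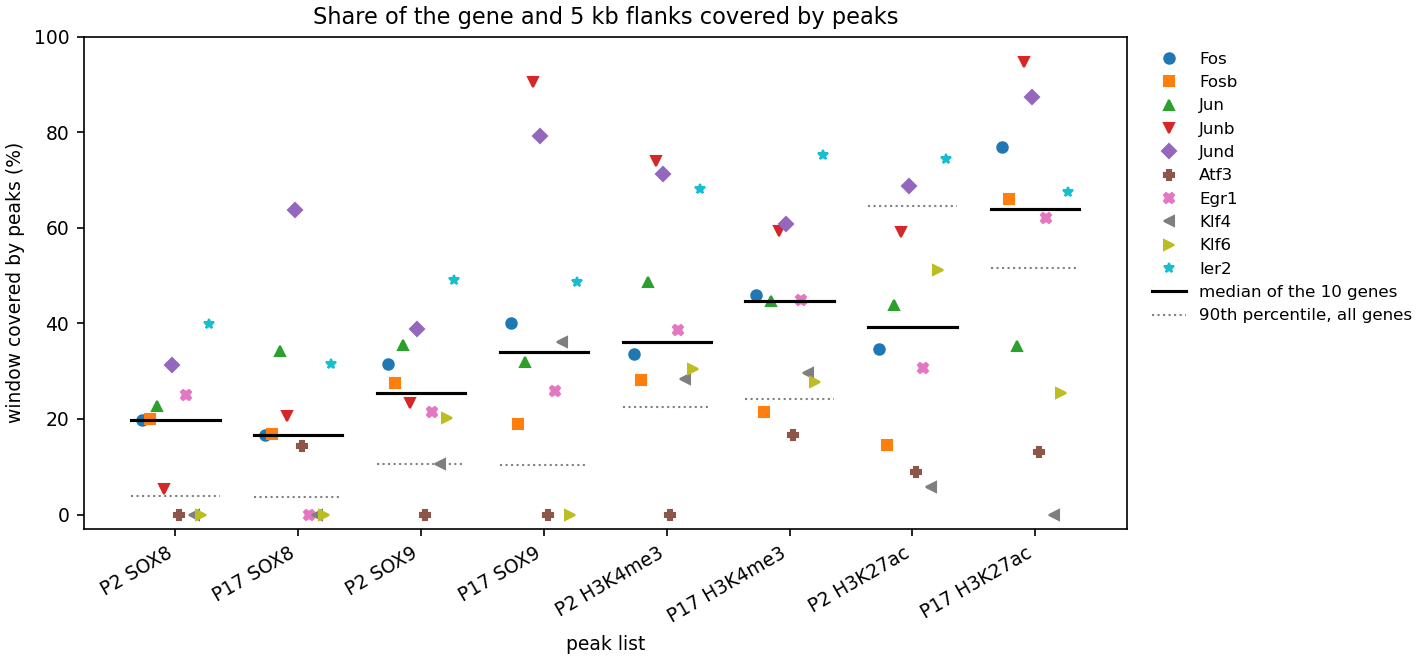
Percent of the gene and its 5 kb flanks covered by peaks (vertical axis) in each list (horizontal axis), 1 symbol per gene. Black lines are medians of the 10 genes and dotted lines the 90th percentile of all protein-coding genes. In the SOX lists the median of the 10 (16.7% to 34.0%) lies above the 90th percentile of all genes (3.73% to 10.5%). Short genes have short windows, of which a peak of given width covers a larger share.

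Related genes were counted in the same way. Of 41 other AP-1 and immediate early genes, 14 had a P2 SOX8 peak, 21 a P2 SOX9 peak, 14 a P17 SOX8 peak and 17 a P17 SOX9 peak, or 34.1%, 51.2%, 34.1% and 41.5%. These shares lay above those of all protein-coding genes, but those at P2 were near the shares of genes with H3K4me3 at both ages (31.2% for SOX8 and 54.9% for SOX9). A peak in all 4 SOX lists was present at 6 of them: the leucine zipper factor genes Atf7 and Mafg, the phosphatase gene Dusp1, Btg2, an inhibitor of cell division, the small GTPase gene Rhob and the pseudokinase gene Trib1. This share, 14.6%, lay above the 6.45% of all genes but near the 13.8% of genes with H3K4me3 at both ages. The share of all genes with SOX peaks at P17 but none at P2 was not counted. Such peaks lay at 7 of the 41: Fosl1, Maff, Egr3, Nr4a1, Arc, Csrnp1 and Plk2. Of these, Nr4a1, an orphan nuclear receptor, had a P17 SOX9 peak of 10551 bp, and Arc, a gene of synaptic plasticity, one of 7254 bp. No SOX peak lay at 13 of the 41, among them Fosl2, Myc and Npas4, which were picked here after their values were seen. The 13 are 31.7% of the 41, against 66.1% of all genes and 37.7% of genes with H3K4me3 at both ages.

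The second list held 19 factors and kinases that act on immediate early promoters. Of these, 11 had SOX8 and 15 SOX9 at P2, against 15.1% and 27.7% of all genes, and 7 had SOX8 and 7 SOX9 at P17, against 13.0% and 15.7%. The share of all genes was thus also higher in the P2 lists. H3K4me3 lay at 18 of the 19 at each age, all but Elk1 at P2 and all but Elk3 at P17. Genes with H3K4me3 at both ages had the 4 SOX peaks at 31.2%, 54.9%, 24.5% and 28.7%. The shares of the 19 were 57.9%, 78.9%, 36.8% and 36.8% in the same order. Peaks in all 4 SOX lists lay at Srf, the serum response factor, at its coactivator gene Mkl1 (Mrtfa in the gene table), and at Map2k2, a kinase of the ERK pathway. These are 15.8% of the 19, against 6.45% of all genes and near the 13.8% of genes with H3K4me3 at both ages. Mkl2 (Mrtfb in the gene table) had a P17 SOX9 peak of 6011 bp and none at P2. No SOX peak lay at Elk1, Elk3 or Elk4, the ternary complex factors that bind beside Srf, which were also named after their values were seen. They are 15.8% of the 19, whereas 66.1% of all genes and 37.7% of genes with H3K4me3 at both ages had no SOX peak.

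**Figure D5:**
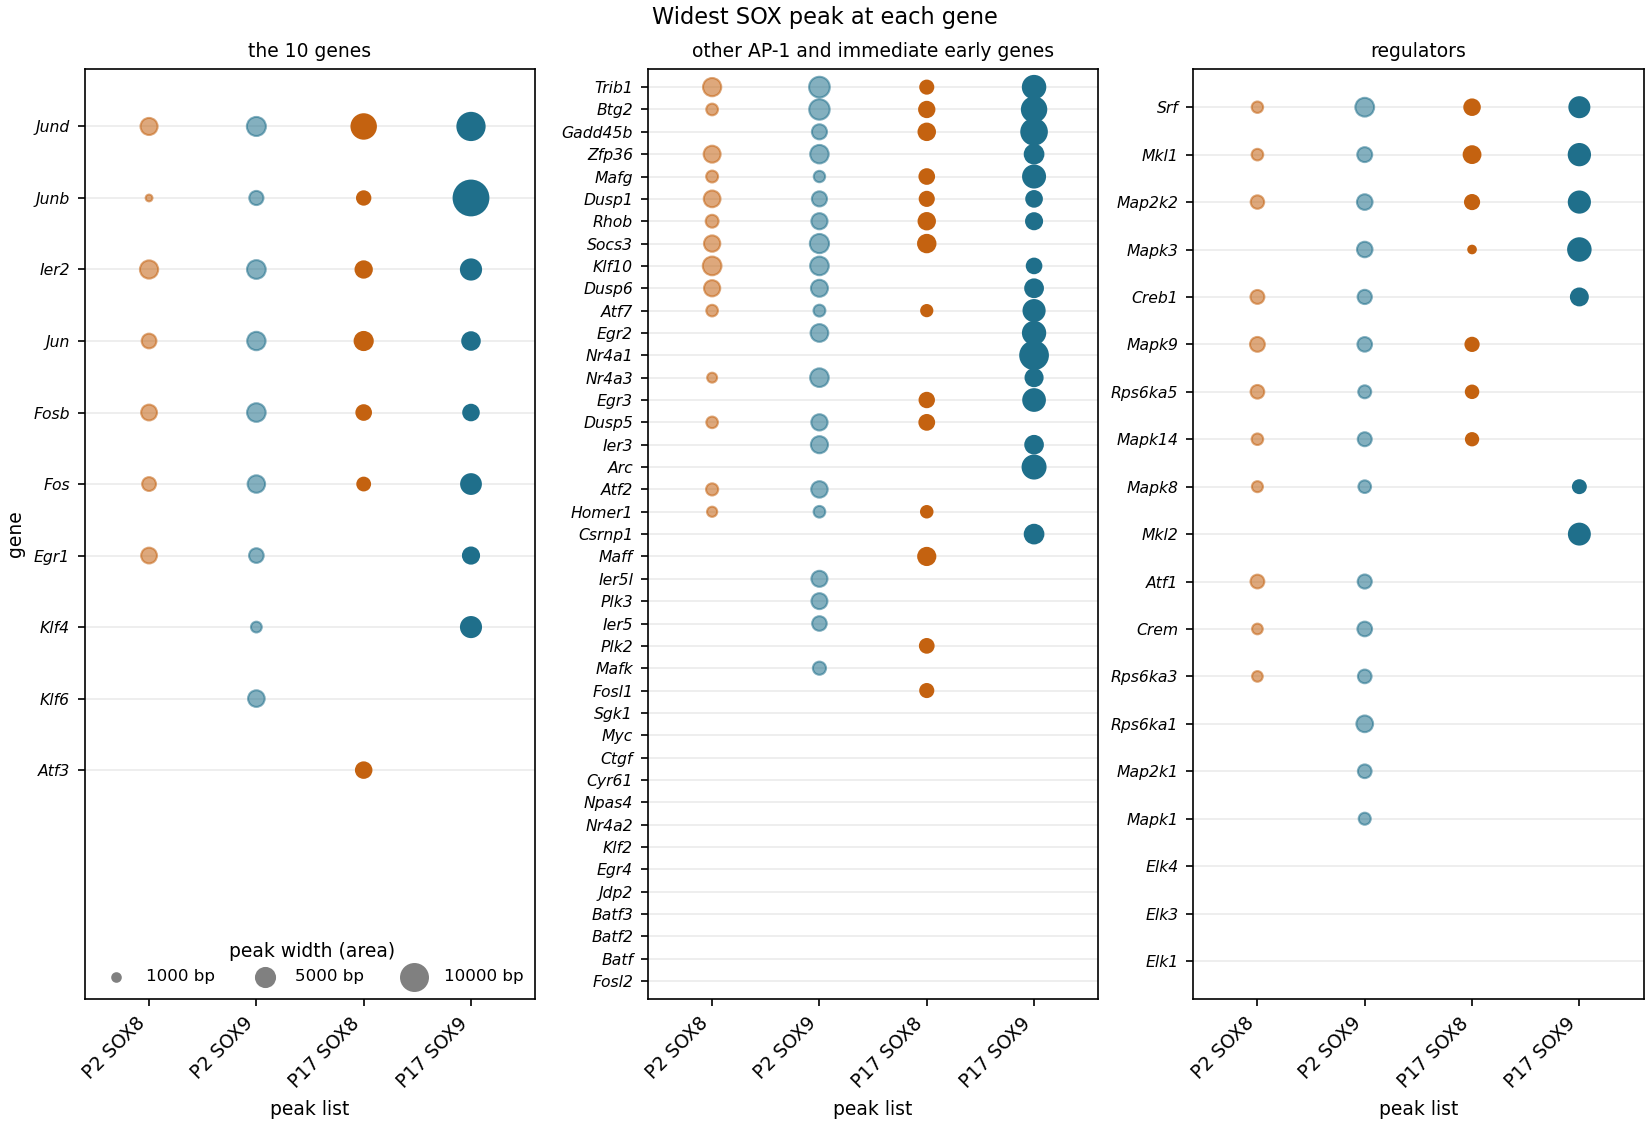
Widest peak (area of the point) in each SOX list (horizontal axis) at the 10 genes, the 41 other AP-1 and immediate early genes and the 19 regulators (vertical axes, ordered by summed width). Colour marks the factor (orange SOX8, blue SOX9), with pale points for P2 and dark for P17. Among the 10, points fill all 4 columns for 6 genes, and Atf3 has a point in the P17 SOX8 column only.

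Retinal cell markers gave other patterns in the same SOX lists. Rod markers had P2 SOX9 peaks at 2 of 8 and P17 SOX9 peaks at 8 of 8, Müller glia markers at 6 of 8 and 1 of 8, and bipolar cell markers at 2 of 6 and 1 of 6, against 27.7% and 15.7% of all genes. For SOX8 the counts at P2 and P17 were 2 and 6 of 8 for rods, 4 and 0 of 8 for Müller glia and 0 and 0 of 6 for bipolar cells, against 15.1% and 13.0%. The 10 genes had 9 and 8 for SOX9 and 7 and 7 for SOX8. Whether their SOX peaks come from Müller glia, rods or other cells was not tested.

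Genes closest to each of the 10 were sought among those with the same presence or absence in all 8 lists, by the sum over lists of the absolute log2 ratio of covered bases (100 bp added to each). The closest to Fos were Pcbp1 (1.62) and Naa50 (1.85), to Fosb Mpc2 (2.42) and Gm31649 (2.53), and to Jun Cd3eap (1.53) and Slbp (1.55). Those of Junb were Myl6 (2.33) and Myl6b (2.67). Those of Jund were Iqcn (0.82), which shares its peaks, and Ppfia3 (1.58). For Atf3 they were Trnp1 (2.67) and Hpca (2.99), for Egr1 Thap2 (1.63) and Gm52799 (1.64), for Klf4 Gm1673 (3.54) and Ap1s1 (3.82), for Klf6 Dpf2 (0.94) and Sqle (1.10), and for Ier2 Pbx2 (1.40) and Mesd (1.63). None of these genes is another of the 10.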

How the data were processed

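The deposited files are 8 peak lists of CUT&RUN in mouse retina at P2 and P17, which the authors give as chromosome, start, end and a score of 0 in every row. Per the submitters' processing notes, Bowtie2, SEACR and GRCm38 were used; versions, thresholds, use of IgG and the way libraries were combined are not given in the sources used here. Depth per library is unknown. Each list was assigned to its target and age, not to single libraries. Starts were counted from 1. Genes came from a RefSeq table (GRCm38.p6), which held all 10 genes, and promoters and strands from a RefSeq promoter table, which held 8. The gene table gives gene ends only, so no peak is given an exon or intron. A gene had a peak when at least 1 bp of it lay in the gene or 5 kb on either side. Python 3.11.15 and pandas 2.3.3 were used, and the counting was tested on simulated data, where 200 of 200 implanted peaks were found. No test was run, because the lists hold no replicates. Members and gene lists were chosen with earlier results of these data known. Named genes were all 10 genes, the related genes in all 4 SOX lists or with SOX peaks at P17 only, and the 2 closest genes to each of the 10; 6 related genes without SOX peaks were named after their values were seen. Protein sequences were not used here. The counts were repeated with other flanks, peak centres, wider or equal numbers of peaks, a 50% overlap and other gene backgrounds.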

Additional observations from a re-analysis of the deposited data

How the results depend on the processing

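No paired analysis was possible because the lists hold no values per replicate, and for the same reason no replicate could be left out. Of 56 planned changes to the number of the 10 genes with a peak in a list (no flanks, flanks of 1 or 10 kb, peak centres, equal numbers of widest peaks, peaks of at least 1 kb, the wider 50%), 55 stayed within 1.5 times the main count. The exception was P17 SOX9, which fell from 8 to 5 genes with the wider 50% of its list, losing Fosb, Jun and Egr1. Some changes could not move a count. Equal numbers leave the shorter list of a target whole, and the narrowest P2 H3K4me3 peak is 1096 bp. Counts this near 10 cannot rise by 1.5 times. Falls within that limit counted as unmoved, such as P17 SOX8 from 7 to 5 with the wider 50%. All 16 overlap counts stayed within 1.5 times with a 50% overlap or with the widest P2 H3K27ac peaks. The narrow P2 SOX8 peak of Junb was lost with peaks of at least 1 kb, leaving 6 genes. With as many P2 H3K27ac peaks as at P17, taking the widest, 7 genes had one (not Fosb, Atf3 or Klf4). With promoters in place of windows, chosen after the data were seen, P2 SOX8 fell from 5 to 3 of 8 genes.

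Shares with a peak in other gene sets lay outside the 95% Wilson interval of the share over all genes, which leaves out the error of the smaller set (14.5% against 15.1% for P2 SOX8 is the closest pair). In genes of the members' length range they were 14.5% (P2 SOX8), 25.6% (P2 SOX9), 45.5% (P2 H3K4me3), 77.8% (P2 H3K27ac), 14.9% (P17 SOX8), 17.7% (P17 SOX9), 46.2% (P17 H3K4me3) and 51.6% (P17 H3K27ac). In genes with H3K4me3 at both ages they were 31.2% (P2 SOX8), 54.9% (P2 SOX9), 99.9% (P2 H3K27ac), 24.5% (P17 SOX8), 28.7% (P17 SOX9) and 94.8% (P17 H3K27ac). With both limits together, added after the data were seen, they were 32.0%, 54.4%, 99.7%, 29.6%, 34.7% and 94.2% in the same order. Under both limits 36.5% of genes had no SOX peak and 16.9% had a peak in all 8 lists. SOX8 and SOX9 lay together at 31.1% of these genes at P2 and at 22.6% at P17. Depth, unknown here, limits every count of genes without a peak.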

Other observations

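Beyond the 5 kb flanks, SOX peaks within 50 kb of the 10 genes were looked at after the counts above were known. Upstream of Fos, a P2 SOX9 peak (chr12:85453811-85457324), a P17 SOX8 peak (chr12:85453694-85456074) and a P17 SOX9 peak (chr12:85453805-85456051) lay 16566 to 17839 bp from the gene, overlapped H3K27ac but not H3K4me3 of the same age, and had no protein-coding gene within 5 kb. On the other side of Fos, P2 SOX9 peaks of 1698 and 2943 bp lay 8174 and 46045 bp away, also over H3K27ac only. Upstream of Fosb, SOX9 peaks of 3572 bp at P2 (chr7:19318103-19321674) and 3376 bp at P17 (chr7:19317931-19321306) had the same features, 7985 and 7813 bp from the gene. Jun, Klf4, Klf6 and Atf3 had no further SOX peak within 50 kb, while Junb had 2 and 5 at P2 (SOX8 and SOX9) and 4 and 4 at P17, each within 5 kb of other genes, Hook2, Mast1 and Get3 among them.

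SOX peaks that overlapped neither mark of the same age numbered 2 in these surroundings, a P17 SOX9 peak of 5173 bp (chr8:84700940-84706112) beyond Ier2, near Trmt1, Lyl1 and Nfix, and a P17 SOX8 peak of 6674 bp (chr8:70743040-70749713) beyond Jund, near Pde4c and Rab3a.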
